A study of Mus musculus with 9 samples.

Results

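Peg3, Usp29 and Zim1 of the Peg3 imprinted domain, and Snrpn, Ube3a, Ndn, Magel2 and Peg12 of the Prader-Willi and Angelman domain, were followed in spermatogonial stem cells (SSC) and in the induced pluripotent stem cells (iPSC) made from them or from fibroblasts. These 8 genes, all on mouse chromosome 7, were located by comparing the chromosome, start and end of each deposited locus with gene positions in GRCm38. Names in the table itself were set aside. The same comparison gave a locus to 18149 genes, out of 54913 loci with values. RNA was sequenced in 9 libraries, 3 per group. SSC were primary Gfra1+ cells (passage 0), sorted with magnetic beads from testis of mice at postnatal day 6 after differential plating. SSCiPSC were iPSC lines grown from such cells, and fiPSC were iPSC lines grown from fibroblasts of male fetuses, both labelled passage 10 to 11, while the methods name later passages for the purified iPSC. All 3 groups carried the same alleles, Gt(ROSA)26Sortm1(rtTA*M2)Jae and Col1a1tm3(tetO-Pou5f1,-Sox2,-Klf4,-Myc)Jae, so that doxycycline switches on Oct4, Sox2, Klf4 and c-Myc. The iPSC were clonal lines from picked colonies, and by the study's methods doxycycline was withdrawn after passage 8 and the cells were purified for SSEA1 to remove feeder cells. Fetal fibroblasts themselves were not among the libraries. The study calls the libraries biological samples, but nothing in the labels says that the 3 of a group came from separate animals or lines, so p-values measure the spread between these libraries, which may be technical.

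Imprinted genes are transcribed from the allele of a single parent, and the choice is set by a stretch of DNA that is methylated in the egg or the sperm. In the Peg3 domain the control region lies at the shared start of Peg3, a zinc finger transcription factor, and Usp29, a ubiquitin protease related gene. Both are transcribed from the paternal allele, in opposite directions, and Zim1, a zinc finger gene further along, is transcribed from the maternal allele. In the Prader-Willi and Angelman domain the control region lies at the Snrpn promoter. Snrpn, which encodes the Sm protein SmN of the splicing machinery, and Ndn, Magel2 and Peg12 are transcribed from the paternal allele. Ube3a, a ubiquitin ligase, is transcribed from the maternal allele in neurons and from both alleles in most other cells. In the germ line these marks are erased and set anew according to the sex of the embryo. The deposited values sum over both alleles, so that they give the level of a gene but not the parental origin of its RNA.

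The promoters below are those of Peg3 and Usp29, at the control region of their domain, and those of Snrpn and Ndn, the members with the largest rise and fall. They are RefSeq windows from 250 bases before to 50 bases after the annotated start (build GRCm38.p6), written 5′ to 3′ in the direction of the gene, with each CG dinucleotide in capitals because CG is what imprint methylation marks. Peg3 and Usp29 are shown together because their start sites lie 164 bases apart and their windows share 263 bases.
Peg3, chr7:6730370-6730669, minus strand: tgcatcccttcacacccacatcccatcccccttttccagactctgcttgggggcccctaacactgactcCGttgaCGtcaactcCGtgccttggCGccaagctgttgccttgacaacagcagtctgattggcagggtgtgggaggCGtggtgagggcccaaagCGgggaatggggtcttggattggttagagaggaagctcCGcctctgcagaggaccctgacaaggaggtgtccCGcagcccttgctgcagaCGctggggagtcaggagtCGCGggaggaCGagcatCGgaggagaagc
Usp29, chr7:6730333-6730632, plus strand: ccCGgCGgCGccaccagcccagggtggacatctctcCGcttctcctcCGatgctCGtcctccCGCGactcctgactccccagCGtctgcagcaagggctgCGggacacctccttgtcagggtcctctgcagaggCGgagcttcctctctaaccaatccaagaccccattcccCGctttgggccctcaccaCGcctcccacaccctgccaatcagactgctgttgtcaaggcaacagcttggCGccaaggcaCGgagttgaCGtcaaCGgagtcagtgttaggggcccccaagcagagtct
Snrpn, chr7:60005150-60005449, minus strand: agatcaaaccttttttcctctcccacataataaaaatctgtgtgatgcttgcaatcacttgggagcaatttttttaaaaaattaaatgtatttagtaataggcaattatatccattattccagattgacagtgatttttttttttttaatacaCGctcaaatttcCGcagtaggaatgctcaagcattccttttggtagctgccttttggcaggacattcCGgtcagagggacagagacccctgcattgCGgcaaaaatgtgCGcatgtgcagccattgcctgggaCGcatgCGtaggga
Ndn, chr7:62348027-62348326, plus strand: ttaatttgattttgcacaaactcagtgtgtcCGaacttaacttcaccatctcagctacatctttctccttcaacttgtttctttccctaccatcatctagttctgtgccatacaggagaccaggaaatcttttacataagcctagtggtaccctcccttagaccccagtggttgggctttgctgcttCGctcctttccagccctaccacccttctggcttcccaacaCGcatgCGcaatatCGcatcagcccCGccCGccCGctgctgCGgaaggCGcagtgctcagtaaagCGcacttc

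The Peg3 window held 13 CG and the Usp29 window 17, while the median over 32851 such windows of the mouse genome was 7. The Snrpn window held 7, the Ndn window 11, and those of the other members ranged from 10 in Magel2 to 29 in Ube3a. Searching for the 6 letters TGCCGC, the core of the sites bound by the imprint protector ZFP57, on either strand found them in 2 of the 8 windows, Snrpn and Zim1, and in 11.6% of all windows. These are matches of letters in short windows and say nothing of binding.

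The loci did not cover each gene alike. The Peg3 locus (chr7:6704048-6730471, minus strand) covered 99.4% of its gene, from 3′ end to start site, and ended 52 bases from the annotated start. The Ube3a locus (chr7:59229247-59308100, plus strand) covered 95.2%. The Snrpn locus (chr7:59983120-60005208, minus strand) covered the 14.0% of the gene nearest its 3′ end and ended 9 bases from the start site shown above. It is a shared locus. Snurf, which is encoded in the same transcript as Snrpn, and the gene model Gm38393 have this same locus, and their fragments cannot be told apart from those of Snrpn. Usp29 was read from chr7:6952228-6964032 on the plus strand, which held 5.0% of a long gene, at its 3′ end, and which also overlaps Zim3 on the opposite strand. Zim1 was broken into 9 loci, of which the main one (chr7:6677810-6682179, minus strand) covered 17.4% of the gene. The intronless Ndn (chr7:62348269-62349964, 45.9% of its gene model) and Peg12 (chr7:62461863-62463969, 79.5%) had loci without a strand, so that antisense reads, such as those of the lncRNA model Gm32061 whose span covers Ndn, cannot be told apart. The Magel2 locus (chr7:62377871-62381780, plus strand) covered 81.4%.

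Depth was unequal. The spacing of the lowest values put the SSC libraries at 1.78, 4.64 and 1.38 × 1000000 fragments, the SSCiPSC libraries at 15.9, 13.7 and 15.1 and the fiPSC libraries at 13.1, 17.5 and 15.4 in the same unit. In the 3 SSC libraries, 3 fragments on 1 kb of transcript were worth 1.69, 0.646 and 2.17 FPKM (fragments per kilobase of transcript and 1000000 fragments, the unit of the deposited table), against 0.171 to 0.228 FPKM in the iPSC. Values under these floors are a handful of fragments, and floors cover counting error only.

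The cell types were compared with their markers before the imprinted genes were read. Gfra1, the receptor used for the sort, was at 31.9 ± 7.14 FPKM (SD, n = 3) in SSC and 0.121 ± 0.0531 in SSCiPSC, and all 14 germ line markers were detected in SSC. All 14 were also detected in SSCiPSC and in fiPSC, so this list is not specific to SSC. Their sum was 767 to 1119 FPKM in SSC and 298 to 508 in the iPSC. Nanog was at 0 in all SSC and at 455 ± 28.7 in SSCiPSC. The SSC libraries also held RNA of testis somatic cells, and libraries differed in how much. The 10 Sertoli markers with a locus of their own summed to 1205, 1231 and 983 FPKM in SSC 1, 2 and 3, led by Clu, a secreted chaperone, at 713, 645 and 538. The 4 Leydig markers, led by the steroid enzyme Cyp11a1 (96.1, 69.4 and 155), summed to 164, 130 and 244. The 7 macrophage markers, led by C1qa (15.8, 4.61 and 51.1), summed to 64.6, 23.8 and 198, and the 11 fibroblast markers, led by Col3a1 (32.6, 27.4 and 95.9), to 136, 120 and 356. SSC 3 was therefore highest in Leydig, macrophage and fibroblast markers and, with a sum of 767 against 895 and 1119, lowest in germ line markers. It was also lowest in Sertoli markers and in the 5 peritubular myoid markers, which summed to 115, 97.5 and 84.9 in SSC 1, 2 and 3. No marker of these lists was at 0 in all SSC. In the 6 iPSC libraries the Leydig sum was at most 0.358, with Lhcgr at 0 in all of them, and the macrophage sum was at most 15.4. The Sertoli sum there, 176 to 310, was mostly Rhox5, a homeobox gene that pluripotent cells also express, with Cst12 and Fshr at 0.

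**Figure D1:**
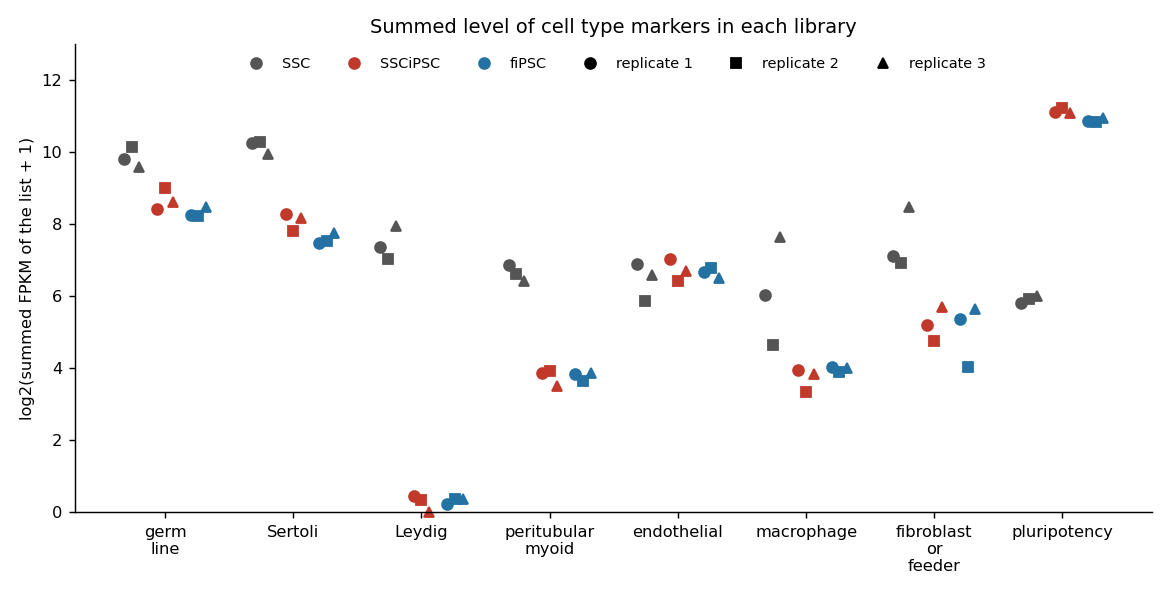
Summed FPKM of each marker list, as log2(sum + 1), for the 9 libraries. Each point is a library, with colour for the group and shape for the replicate number. SSC lie above the iPSC in the Sertoli, Leydig, myoid and macrophage lists, SSC 3 has the highest macrophage and fibroblast sums, and the pluripotency sum is higher in every iPSC library than in any SSC library.

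The first comparison asked which members changed when SSC became SSCiPSC. Of the 7 members that passed the filter on low values, Peg3, Usp29 and Snrpn were higher and Ndn and Zim1 lower in SSCiPSC, while Ube3a and Peg12 did not pass the threshold. Here and below, a call is an adjusted p below 0.05 in limma's moderated test on log2(FPKM + 1), adjusted by Benjamini-Hochberg over all loci tested. The 5 of 7 stand against a background in which 50.3% of 36544 tested loci were called, 26.2% higher and 24.1% lower. Usp29 and Peg12 were below 1 FPKM in every SSC library and Zim1 in every SSCiPSC library, so that these 3 passed the filter through the group where they were high, and the count of calls adds nothing to the values of the single genes. All 8 members had SSC and SSCiPSC ranges apart from each other, as had 59.8% of tested loci, although for Magel2 this separates single fragments at unequal depth. With 3 libraries against 3 an exact permutation test cannot go below p = 0.1, the two-sided value each of these 8 separations reached. The median difference of all loci was 0.11 on the log2 scale and that of the 7 members 0.50.

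**Figure D2:**
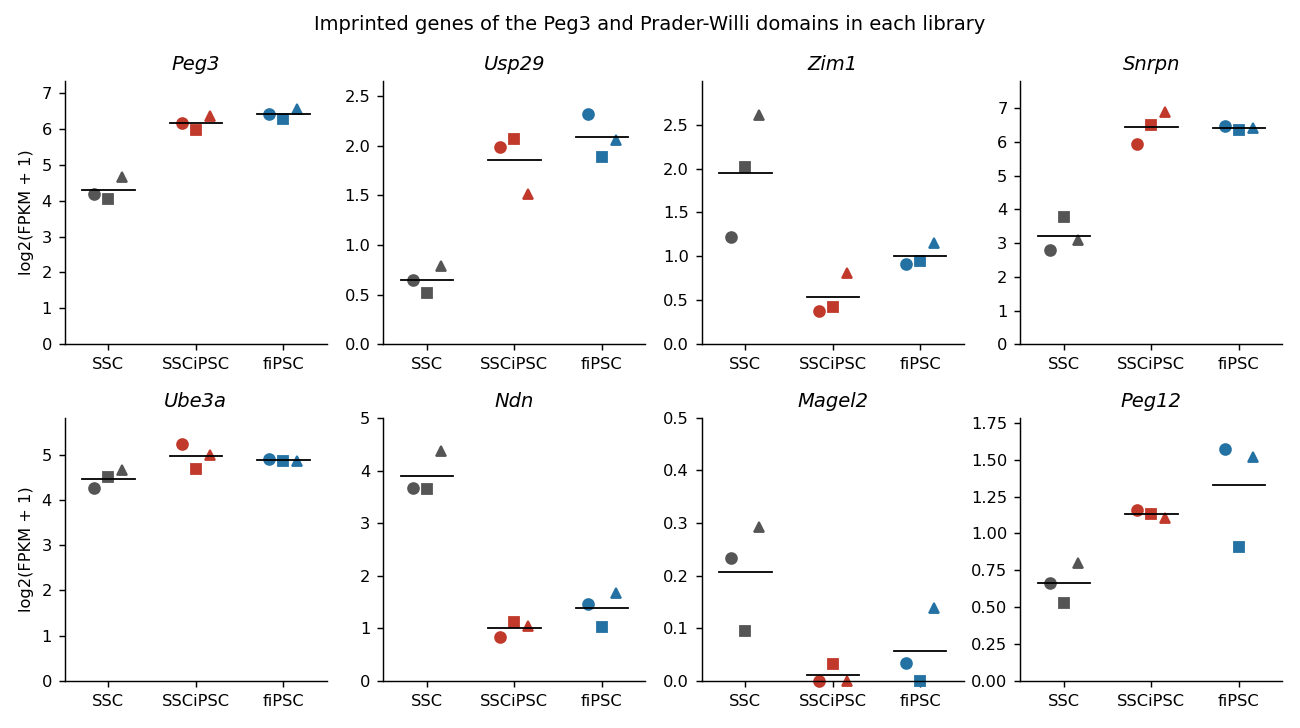
The level of each of the 8 genes, as log2(FPKM + 1), in the 3 SSC, 3 SSCiPSC and 3 fiPSC libraries, with circles, squares and triangles for replicates 1, 2 and 3 and a bar at the group mean. Each panel has its own axis from 0. Peg3, Usp29 and Snrpn are higher and Ndn is lower in both kinds of iPSC than in any SSC library.

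Peg3 was at 17.4, 15.7 and 24.5 FPKM in SSC and at 71.1, 62.2 and 81.9 in SSCiPSC. Every SSCiPSC library was well above every SSC library, and SSC 3 was the highest of its group. The mean was 3.74 times higher, a difference of 1.87 on the log2 scale (SE 0.20, limma adjusted p = 0.000589, n = 3 and 3). A second locus without a strand over the same interval did not follow, at 6.26, 3.83 and 11.2 FPKM in SSC, against 9.49, 6.03 and 8.46 in SSCiPSC.

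Usp29, read at its 3′ end, was at 0.566, 0.433 and 0.723 FPKM in SSC and at 2.98, 3.18 and 1.86 in SSCiPSC. The groups were apart, with SSCiPSC 3 the lowest of the iPSC. The difference was 1.21 on the log2 scale (SE 0.24, adjusted p = 0.00683), and it was made from at most 3.18, 6.35 and 3.16 fragments in the SSC libraries against 149, 137 and 88.6 in SSCiPSC, taking the annotated exons as the length. The 3 other tested loci that lay wholly in Usp29 exons held at most 1 fragment in any SSC library and are not read further. At the 5′ end, beside the promoter shared with Peg3, the plus-strand Usp29 locus (chr7:6730477-6737958) was at 1.48, 0.283 and 0 in SSC and 1.24, 0.848 and 0.769 in SSCiPSC. There the groups overlapped and the locus did not pass the filter on low values, so that the rise of Usp29 rests on its 3′ part.

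Zim1, transcribed from the opposite parental allele, went the other way. Its main locus was at 1.33, 3.06 and 5.11 FPKM in SSC and at 0.297, 0.337 and 0.761 in SSCiPSC, with SSC 3 highest and no overlap. The difference was -1.41 on the log2 scale (SE 0.39, adjusted p = 0.0223). In the SSC libraries this is at most 1.38, 8.27 and 4.12 fragments, again taking the annotated exons as the length. The call was lost without SSC 2 (adjusted p = 0.0522) and without SSCiPSC 1 (0.083), 2 (0.0807) or 3 (0.0501). An exonic piece of 1274 bases was at 2.03, 1.75 and 1.95 FPKM in SSC against 0.567, 0.260 and 0.0590 in SSCiPSC (-1.18, adjusted p = 0.00425), on about 4, 9 and 3 fragments in SSC, and it too passed the filter through the SSC libraries alone. A further piece of 291 bases held at most 3 fragments in any SSC library, and no fold is given for it.

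The rest of the Peg3 domain was called in both directions. Zim2, a zinc finger gene beside Zim1, was at 9.93, 9.22 and 4.53 FPKM in SSC and at 0.713, 1.54 and 1.07 in SSCiPSC (-2.03, adjusted p = 0.00361), with SSC 3 the lowest of its group where it was the highest for Zim1. Zfp264, another zinc finger gene, beyond Usp29, was at 0.873, 0.556 and 0.743 in SSC and at 3.22, 2.92 and 2.83 in SSCiPSC (1.21, adjusted p = 0.00402). Like Usp29, Zfp264 was below 1 FPKM in every SSC library. Zim3 had no value of its own, because the locus that covered most of it, 38.4% of the gene, was the 3′ Usp29 locus of the opposite strand, and the strandless pieces over it also lay in exons of Usp29 or Zfp264. No locus was found for the antisense RNA Peg3os. Of the 11 protein-coding neighbours within 1 Mb that had a locus of their own, 2 were higher and 3 lower, where 26.2% of all tested loci were higher and 24.1% lower. The neighbours higher numbered 4 without SSC 1 or under quantile normalization, and their median of -0.05 became 0.65 without SSC 1 and -0.71 without SSC 3. Nlrp4c was at 31.7 ± 5.12 FPKM (SD, n = 3) in SSC and 3.24 ± 0.886 in SSCiPSC, so that differences of this size were also present outside the imprinted genes.

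**Figure D3:**
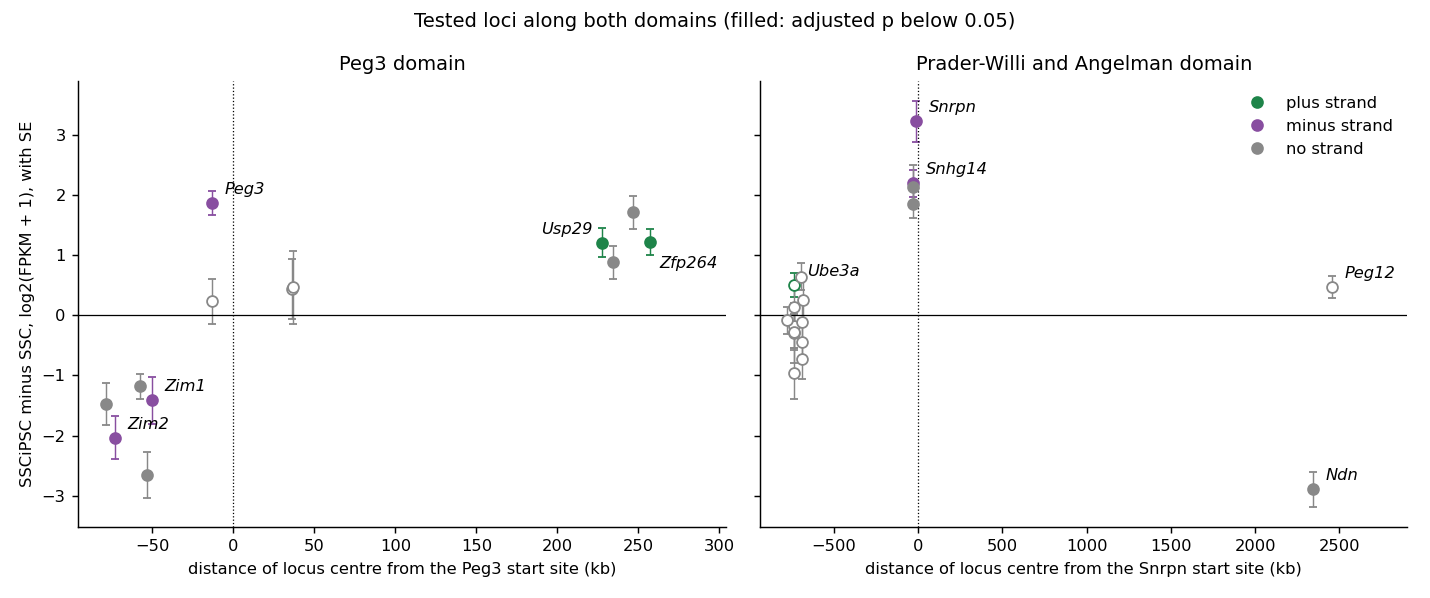
Difference SSCiPSC minus SSC in log2(FPKM + 1), with its SE, for each tested locus of both domains, against the distance of its centre from the start site of Peg3 (left) or Snrpn (right) in kb. Colours give the strand of the locus and filled points passed the threshold. On the left the loci of Zim1 and Zim2 are below 0 and Peg3, Usp29 and Zfp264 above. On the right Snrpn and the Snhg14 loci nearest to it are above 0, Ndn is far below, and no locus over Ube3a is filled.

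Snrpn rose most of the 8 members. It was at 5.96, 12.7 and 7.55 FPKM in SSC and at 60.7, 89.3 and 118 in SSCiPSC. The lowest SSCiPSC library stood far above the highest SSC library, SSC 2, which was also the deepest. The mean was 10.2 times higher, or 3.22 on the log2 scale (SE 0.34, adjusted p = 0.000504). Snhg14, the long RNA that continues downstream from Snrpn, carries the snoRNA clusters of the domain and in neurons reads through antisense to Ube3a, was read at its near end (chr7:59969864-59980791, minus strand). That locus held 0.883% of Snhg14, with 5896 of its 10928 bases inside the gene, and does not give the level of the whole RNA. It was at 12.3, 11.7 and 7.62 FPKM in SSC and at 47.6, 44.1 and 62.4 in SSCiPSC, without overlap (2.19, SE 0.23, adjusted p = 0.000517). 2 further loci without a strand in this interval were also higher, by 2.13 and 1.85. Further along Snhg14, 4 tested loci outside Ube3a were not called, with differences from -0.73 to 0.26.

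Ube3a differed little. It was at 18.1, 21.5 and 24.1 FPKM in SSC and at 36.7, 24.7 and 30.6 in SSCiPSC, so that SSCiPSC 2 was next to SSC 3 without overlap. The difference of 0.50 on the log2 scale (SE 0.19, adjusted p = 0.0732) did not pass the threshold. It passed without SSCiPSC 2 (0.64, adjusted p = 0.0434). Over 15 alternatives it passed in 3 and ranged from 0.21 to 0.66, with an adjusted p of up to 0.430. Exonic fragments without a strand near its 3′ end (chr7:59308237-59309839) were at 10.2, 8.99 and 12.5 in SSC and 22.1, 13.9 and 15.6 in SSCiPSC (0.64, adjusted p = 0.0548). The 5 strandless loci over the same interval as the Ube3a locus did not follow, with differences from -0.97 to 0.14, none of them called. The fragments near the 3′ end overlap the annotated exons of both Ube3a and Snhg14, and cannot be given to either.

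Ndn, which encodes the MAGE family protein necdin, a growth suppressor of neurons and other post-mitotic cells, was at 11.8, 11.5 and 19.8 FPKM in SSC. In SSCiPSC it was at 0.782, 1.18 and 1.07, so that each SSC library was above 10 FPKM and each SSCiPSC library near 1. The difference was -2.90 on the log2 scale (SE 0.28, adjusted p = 0.000417). From the depth of each library these values were about 32.2, 82.3 and 42.0 fragments in SSC and 19.1, 25.0 and 25.1 in SSCiPSC, all above the floor of 3 fragments. SSC 3, with the most Leydig, macrophage and fibroblast marker RNA, also had the most Ndn. Without SSC 3 the difference was -2.66, and in SSC 2, with the least macrophage and Leydig marker RNA, Ndn was at 11.5. What part of Ndn came from somatic cells was not tested, and in bulk RNA fewer expressing cells and less RNA per cell cannot be told apart.

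Magel2, the MAGE partner of a ubiquitin ligase that acts on endosomes, was hardly present. It was at 0.176, 0.0673 and 0.225 FPKM in SSC and at 0, 0.0227 and 0 in SSCiPSC, which came to about 1.17 fragments in each SSC library and to 0, 1.16 and 0 in SSCiPSC. Both groups were under the floor of 3 fragments and no fold is given. Peg12, a Frat family gene of Wnt signalling, was at 0.581, 0.444 and 0.742 FPKM in SSC and at 1.23, 1.20 and 1.15 in SSCiPSC. It passed the filter through the SSCiPSC libraries, rested on about 2, 4 and 2 fragments in SSC, and was not called (0.47, adjusted p = 0.0636). Mkrn3, a ring finger gene between them, was not tested, at 0.840 ± 0.237 FPKM (SD, n = 3) in SSC and 0.563 ± 0.0337 in SSCiPSC, on a locus it shares with Gm32061. Of the members of this domain that are transcribed from the paternal allele, Snrpn was thus called higher and Ndn lower, and Magel2 and Peg12 were not called.

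Outside the imprinted core of the domain, Atp10a, a phospholipid transporter, was at 2.53 ± 0.627 FPKM in SSC and 1.02 ± 0.296 in SSCiPSC (-0.80, adjusted p = 0.0411), a call lost with median-ratio scaling (-0.70, adjusted p = 0.0562) and without any of the libraries SSC 1, SSC 3 or SSCiPSC 1, 2 or 3 (adjusted p = 0.0726 to 0.133). Further away, Herc2, a giant ubiquitin ligase that binds UBE3A, fell from 47.3 ± 5.69 to 12.3 ± 1.32 (-1.86, adjusted p = 0.000263), and Cyfip1, of the actin regulating WAVE complex, rose from 27.6 ± 1.09 to 42.7 ± 1.61 (0.61, adjusted p = 0.00567), but was not called under quantile normalization (0.20, adjusted p = 0.241). Of the 8 tested genes listed for the rest of the domain, Snhg14 included by its near end, 2 were higher and 3 lower, against 26.2% and 24.1% of all loci. Their median was -0.30, or -0.16 with 2 lower without SSC 1 and -0.44 without SSC 3, and under quantile normalization 1 was higher and 4 lower. Gabrg3 and Oca2 had no locus and Gabra5 was not tested.

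The second comparison set fiPSC against SSC, with the same SSC libraries as reference. Of the 6 members tested, Peg3, Usp29, Snrpn and Ube3a were higher and Ndn lower, and Zim1 was not called. Usp29, below 1 FPKM in every SSC library, again passed the filter through the iPSC alone. Called loci made up 51.8% of the 38007 tested, 28.0% higher and 23.7% lower. In 7 of the 8 members, Magel2 being the exception, the ranges were apart, as in 61.6% of tested loci. Peg3 was at 83.8, 75.9 and 92.3 FPKM in fiPSC, above every SSC library, with a mean 4.38 times higher (SE of the log2 difference 0.18, adjusted p = 0.000284). Snrpn was at 88.0, 80.9 and 84.3, within a narrow range (3.19, SE 0.25, adjusted p = 0.000212).

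Usp29 was at 3.99, 2.69 and 3.16 FPKM in fiPSC (1.44, SE 0.22, adjusted p = 0.0021). Ndn, at 1.76, 1.03 and 2.19, was below every SSC library (-2.51, SE 0.30, adjusted p = 0.000791). Zim1 was at 0.879, 0.926 and 1.22 in fiPSC, below the SSC but nearer to them than in SSCiPSC, and its difference of -0.95 did not pass (SE 0.38, adjusted p = 0.0797). That call turned without SSC 1, where Zim1 was lowest of its group (-1.31, adjusted p = 0.0116). The exonic piece of 1274 bases, which passed the filter through the SSC libraries alone, was called lower (-1.31, adjusted p = 0.000597).

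Ube3a was at 29.1, 28.0 and 28.1 FPKM in fiPSC, a difference from SSC of 0.41 (SE 0.13, adjusted p = 0.0401). The call did not hold under 10 of 15 alternatives, among them leaving out SSC 1 (adjusted p = 0.0757), SSC 2 (0.0657) or fiPSC 1 (0.122), 2 (0.0911) or 3 (0.0974). Peg12 was at 1.97, 0.874 and 1.86 in fiPSC and did not pass the filter in this comparison. Magel2 was at 0.0234, 0 and 0.101, of which fiPSC 3, with about 5.82 fragments, was the only library of the 9 above the floor.

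The third comparison set fiPSC against SSCiPSC, the question being whether the cell of origin left a difference in these genes. None of the 6 members tested was called, and 0.0678% of the 33948 loci tested were. The groups overlapped in 7 of the 8 members, and did not in 18.6% of tested loci. At an unadjusted p below 0.05 in limma, 0 of the 6 passed, but no share of all loci at that threshold is given here, so nothing is read from this count. The differences, fiPSC minus SSCiPSC, were 0.23 for Peg3 (SE 0.14, adjusted p = 0.558), 0.23 for Usp29 (SE 0.22, adjusted p = 0.735) and -0.03 for Snrpn (SE 0.22, adjusted p = 0.975). They were -0.09 for Ube3a (SE 0.15, adjusted p = 0.868), 0.38 for Ndn (SE 0.22, adjusted p = 0.555) and 0.20 for Peg12 (SE 0.23, adjusted p = 0.781). Differences of the size of the SE cannot be resolved with 3 libraries a group. Zim1 was the member without overlap, at 0.297, 0.337 and 0.761 FPKM in SSCiPSC against 0.879, 0.926 and 1.22 in fiPSC. With the annotated exons as the length this was at most 6.70 fragments in an SSCiPSC library and 11.0 in a fiPSC library. Zim1 was too low to be tested. Its exonic piece of 1274 bases, also not tested, overlapped and had the lower mean in fiPSC. That piece was at 0.567, 0.260 and 0.0590 in SSCiPSC and at 0.135, 0.203 and 0.174 in fiPSC.

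**Figure D4:**
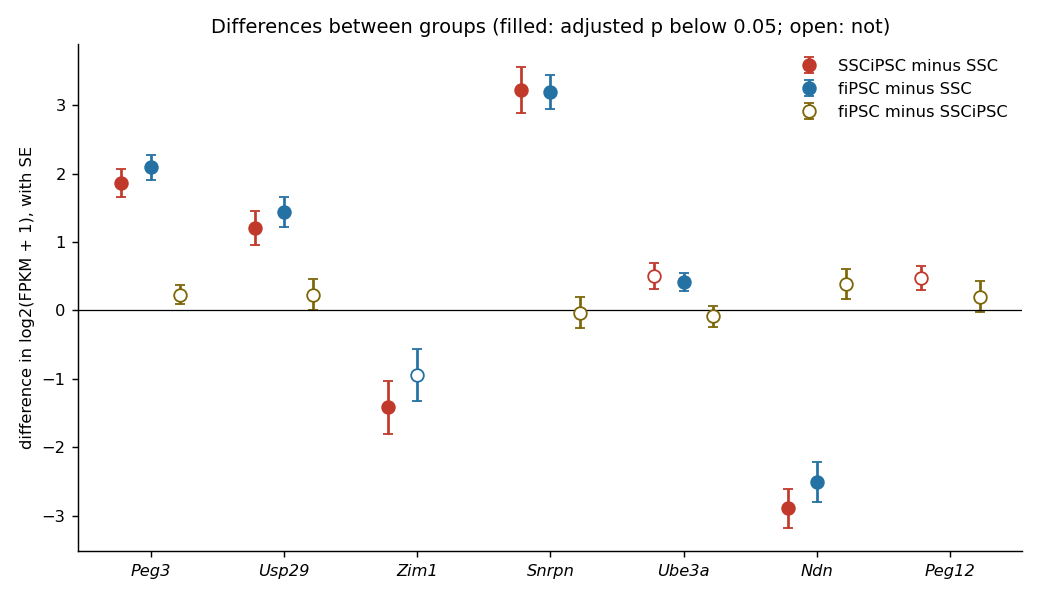
Difference in log2(FPKM + 1) with its SE for the 7 members tested in at least 1 comparison. Red is SSCiPSC minus SSC, blue fiPSC minus SSC and ochre fiPSC minus SSCiPSC, and filled points passed an adjusted p of 0.05. Snrpn, Peg3 and Usp29 are above 0 and Ndn below 0 in both comparisons with SSC, which share the SSC libraries, and all ochre points are open.

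The order of the levels per length changed between the cells. In SSC, Ube3a (21.2 ± 2.98 FPKM, SD, n = 3) and Peg3 (19.2 ± 4.66) were highest and not apart beyond their spread. Ndn (14.4 ± 4.68) and Snrpn (8.74 ± 3.52) followed, with ranges that overlapped, then Zim1 (3.17 ± 1.89), and Peg12 and Usp29 below 1 FPKM. In SSCiPSC, Snrpn (89.4 ± 28.7) and Peg3 (71.7 ± 9.87) were highest, with overlapping ranges, ahead of Ube3a (30.7 ± 5.99). Usp29 (2.67 ± 0.713) came next, followed by Peg12 (1.19 ± 0.0397) and Ndn (1.01 ± 0.207), whose values lay side by side, and Zim1 (0.465 ± 0.257). In fiPSC, Snrpn (84.4 ± 3.54) and Peg3 (84.0 ± 8.19) were at the same level and Ube3a (28.4 ± 0.611) again came after them. Magel2 was last in every group. By mean, Ndn ranked 3 of 8 in SSC and 6 of 8 in SSCiPSC, each time next to a gene whose range overlapped its own. In fiPSC the means of Ndn (1.66 ± 0.586) and Peg12 (1.57 ± 0.605) stood in the other order.

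Of 8 other paternally expressed genes tested in SSCiPSC against SSC, 2 were higher and 5 lower, with a median of -1.24, and of 8 other maternally expressed genes 1 was higher, or 2 without SSC 3, and 3 lower, with a median of -0.35. Sgce, of the paternal list, lost its call with quantile and median-ratio scaling (adjusted p = 0.0561 and 0.0609), which left 4 lower. That list also had 4 lower without SSC 2 or SSC 3. Under quantile normalization 4 of the maternal list were lower. Of all tested loci 50.3% were called, a share near that of the maternal list. Slc38a4, an amino acid transporter, was at 2.67 ± 0.203 FPKM in SSC and 91.0 ± 6.88 in SSCiPSC (4.65, adjusted p = 1.97e-05), and Impact, a regulator of translation, at 6.56 ± 1.82 and 71.4 ± 9.26 (3.28, adjusted p = 0.000155). The paternally expressed Dlk1, a Notch family ligand, was at 13.2, 15.6 and 43.8 FPKM in SSC and at most 0.379 in SSCiPSC (-4.11, adjusted p = 0.000644), and without SSC 3, which stood apart, the difference was -3.59. Dlk1 thus passed the filter on low values through the SSC libraries alone. Plagl1, a zinc finger factor, went from 21.6 ± 7.41 to 2.96 ± 1.05 (-2.49, adjusted p = 0.00103). Among the maternally expressed genes, Cdkn1c, a cell cycle inhibitor, fell by 3.37 on the log2 scale and H19, a long non-coding RNA, by 3.25 (adjusted p = 0.000114 and 0.000262). Phlda2, a growth restraining gene of the placenta, rose by 2.26 (adjusted p = 0.00807). Dlk1, Plagl1, H19 and Cdkn1c were highest in SSC 3, the library with the most Leydig, macrophage and fibroblast marker RNA, and the part of those cells in these differences was not tested.

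RNAs of proteins that protect or copy imprint methylation were higher in SSCiPSC in 6 of 8 tested genes and lower in none, where 26.2% of all tested loci were higher. Their median was 1.60, against 0.11 over all loci. Zfp57 went from 8.65 ± 1.11 to 194 ± 52.5 FPKM (4.31, adjusted p = 6.55e-05), its corepressor Trim28 from 129 ± 17.2 to 703 ± 291 (2.36, adjusted p = 0.000963) and Zfp445, a second imprint binding factor, from 7.08 ± 1.24 to 16.5 ± 1.63 (1.12, adjusted p = 0.00316). Dnmt1, the maintenance methyltransferase, was called higher (1.03, adjusted p = 0.00295), but not under quantile normalization (0.05, adjusted p = 0.795). RNAs of the listed Sm core proteins, which are Snrpb, whose place in the ring SmN takes, and its ring partners, were higher in 6 of 7 genes, with a median of 1.46, against the same 26.2%. Under quantile normalization 5 were higher and 1 lower, with a median of 0.89, and Snrpd2 lost its call (-0.12, adjusted p = 0.716). Snrpd1 rose from 39.6 ± 5.97 to 162 ± 9.50 FPKM (2.01, adjusted p = 0.000184). Snrpb, the close paralogue of Snrpn, was at 126 ± 18.5 and 182 ± 34.3, a difference of 0.52 that was not called (adjusted p = 0.0568), that was called lower under quantile normalization (-0.49, adjusted p = 0.0305) and higher with median-ratio scaling (0.68, adjusted p = 0.0317). The difference at Snrpn was 3.22 on the same scale.

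Partners of Magel2 in retromer dependent sorting were also read. Of 9 tested, 8 were higher in SSCiPSC and none lower, against 26.2% of all loci higher, among them Trim27, its ubiquitin ligase (22.1 ± 4.08 to 70.8 ± 17.6 FPKM, 1.62, adjusted p = 0.00169), and Usp7 (1.20, adjusted p = 0.000985). Under quantile normalization 3 of the 9 were higher, and Usp7 was not (0.26, adjusted p = 0.164). Among 8 paralogues of members, 2 were higher and 2 lower, against 26.2% and 24.1% of all loci. Under quantile normalization none was higher and 3 lower, with median-ratio scaling 4 were higher and 2 lower, and without SSC 1 or SSC 3 only 1 was higher. Maged1, of the MAGE family of Ndn and Magel2, fell from 359 ± 42.0 to 68.6 ± 17.1 FPKM (-2.39, adjusted p = 0.000252), and Frat2, a relative of Peg12, from 9.71 ± 1.69 to 4.42 ± 0.0329 (-0.97, adjusted p = 0.00812). In fiPSC against SSCiPSC no gene of these lists was called.

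**Figure D5:**
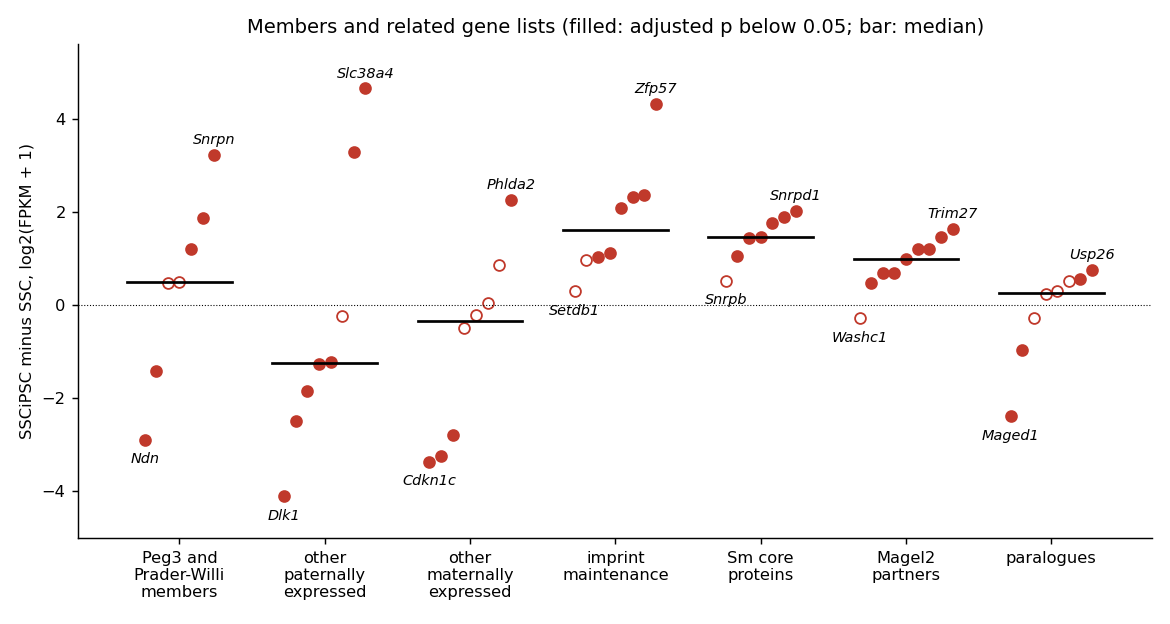
Difference SSCiPSC minus SSC in log2(FPKM + 1) for the 7 tested members and for the tested genes of 6 related lists, sorted within each list, with a bar at the median. Filled points passed an adjusted p of 0.05, and the lowest and highest gene of each list is named. The members and the other imprinted genes spread to both sides of 0, while imprint maintenance genes and Sm core proteins lie above it on this scale, although Snrpb and Snrpd2 are below 0 under quantile normalization.

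The genes whose levels followed each member most closely were found by Pearson's r over the 9 libraries, among 7469 protein-coding genes with a locus of their own and a highest value of at least 10 FPKM. The 9 points share the step from SSC to iPSC and the depth that goes with it, so the values are a description. Usp29 was followed by Atxn3 (r = 0.981), Iqgap1 (0.980) and Ccnq (0.979). Peg3 was followed by Elf3 (r = 0.991) and Zmat3 (0.991), and Snrpn by Rpl6 (0.995), Tdp1 (0.995) and Bri3bp (0.994). Ndn was followed by Ccdc71l (0.996), Pik3r1 (0.995) and Cd34 (0.995). Cd34, a surface protein of endothelial and blood forming cells, was at 12.9, 11.3 and 24.4 FPKM in SSC and between 0.168 and 1.07 in the iPSC, with SSC 3 highest as for Ndn. The sum of the 6 endothelial markers did not follow this pattern. It was 118, 57.4 and 95.6 FPKM in SSC, highest in SSC 1, and 85.1 to 129 in the iPSC, where it was mostly Pecam1. In SSCiPSC against SSC, 3 of these 6 were called lower and 1, Pecam1, higher, with a median of -1.74. Of all tested loci 24.1% were lower and 26.2% higher. Pecam1 lost its call under quantile normalization (0.61, adjusted p = 0.194), and Emcn was at 0 in all iPSC. What part of Ndn came from endothelial cells was not tested. For Zim1 the closest genes were Ago3 (0.969), Sirt2 (0.965) and Gtdc1 (0.956), for Ube3a Ccdc138 (0.979), Fignl2 (0.954) and Idh1 (0.953), and for Peg12 Ppm1m (0.964), BC024978 (0.938) and Npepps (0.935).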

How the data were processed

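Per the labels, ribosomal RNA was depleted before libraries were made with a stranded mRNA kit; the methods name the kit alone. Reads were paired. The authors deposited 1 table of FPKM per assembled locus, headed as RPKM values, and per the labels used Trimmomatic 0.32, TopHat2 2.0.9, Bowtie2 2.1.0, Cufflinks 2.2.1 and Cuffdiff. The labels name build mm9, but 92.8% of stranded loci lay on same-strand protein-coding genes of GRCm38 (GENCODE M21), against 38.2% and 37.9% when moved by 1000000 bases, so GRCm38 was used. Strand was read from the order of loci within each chromosome. A gene took the locus that covered most of it, with an overlap of at least 50% of the shorter of both. 1 locus with a blank value was left out, as was a second file of feature numbers.

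Loci reaching 1 FPKM in 3 or more of 6 libraries were tested with limma 3.58.1 (R 4.3.3, lmFit and eBayes with a trend) on log2(FPKM + 1), which understates the change of low genes. Group labels came from the sample titles. Fragment numbers were recovered from the steps between low values of 12148 unspliced loci, and a scaling between libraries was not given in the sources used here. Tested on simulated data with 200 loci changed by 2 on the log2 scale, the fit recovered 55.5% in SSCiPSC against SSC (33585 loci), 63% in fiPSC against SSC (34562 loci) and 76% in fiPSC against SSCiPSC (32647 loci), with 5.13%, 8.70% and 6.17% of the calls false in that order. The changed loci had a mean log2(FPKM + 1) above 2, so genes as low as Usp29, Zim1 and Peg12 were not covered. Far fewer loci were changed than were called in the data against SSC (50.3% and 51.8%), so these shares do not describe those tests. Alternatives were the locus with the highest mean, the pseudocount, the filter, scalings, the spread estimate, a replicate block and leaving out each library. The members, lists and tests were chosen with earlier results of these data known. Named genes are the 8 members, the listed genes and the 3 closest patterns of each member but Magel2, of which 1 is not reported here. Checked with Python 3.11.15, replicates were not copies of each other. Promoters are from RefSeq, with a window for 8 of 8 members.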

Additional observations from a re-analysis of the deposited data

How the results depend on the processing

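No call of a member changed direction under any alternative. Peg3, Snrpn and Ndn kept their calls against SSC in 15 of 15 alternatives in both comparisons and Usp29 in 14 of 14. Peg3 ranged from 1.45 to 2.05 on the log2 scale in SSCiPSC against SSC, Snrpn from 2.91 to 3.50 and Ndn from -3.67 to -2.66. Members lower in SSCiPSC numbered 1 instead of 2 with a mean of at least 5 FPKM, where Zim1 was no longer tested, and 1 to 2 when a library was left out. With that filter members higher numbered 2 instead of 3, as Usp29 was no longer tested. Members higher numbered 5 instead of 3 with median-ratio scaling, which added Ube3a (0.66, adjusted p = 0.0293) and Peg12 (0.54, adjusted p = 0.0391) and moved the median of all loci by 0.12. Ube3a was also called with all 9 libraries in the fit (adjusted p = 0.0282), and Peg12 without SSC 3 (adjusted p = 0.0499). In fiPSC against SSC 2 members instead of 1 were lower with the locus of the highest mean, a piece of 291 bases with few fragments, with quantile normalization and with all 9 libraries, and 1 to 2 when a library was left out, Zim1 being the gene added. Quantile and median-ratio scaling moved the median there by -0.13 and 0.13. Ube3a lost its call there without a filter (adjusted p = 0.0524), with quantile normalization (0.306), without the trend (0.0821) and with all 9 libraries (0.0614).

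Among all loci, requiring a mean of at least 5 FPKM left fewer loci to test and gave 9707 calls in SSCiPSC against SSC and 10158 in fiPSC against SSC. In fiPSC against SSCiPSC the 23 calls became 11 with that filter, 11 with all 9 libraries, and 6 to 20 when a library was left out, and the cause was not tested. Replicate numbers did not pair the libraries: the deviations of same-numbered libraries correlated at -0.24 to 0.02. With a replicate block those calls became 6, and Ube3a lost its call in fiPSC against SSC (adjusted p = 0.0973). The shallow SSC libraries limit Zim1, Usp29, Magel2 and Peg12, which rest on few fragments there.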
